A study of Homo sapiens with 23 samples.

Results

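HLA class I molecules carry peptides from inside the cell to its surface, and 9 genes of that route were examined in human tumours grown in mice. They are the heavy chains HLA-B, HLA-C, HLA-E and HLA-F, the shared light chain B2M, the peptide transporter subunits TAP1 and TAP2, tapasin (TAPBP) and the proteasome subunit PSMB9. They were taken by symbol from the deposited table, where each symbol matched 1 row, and they are 9 of 27589 genes. The tumours grew under the skin of NCG mice from injected SCC-13 cells, a long-established line from a human squamous cell carcinoma of the skin, and were harvested on day 26. This strain (NOD with alterations of Prkdc and Il2rg) is known to lack T, B and natural killer (NK) cells. The 11 hFWE KO tumours, from cells with a knockout of the human Flower gene (CACFD1), came from line 2F7 (3 tumours), line 2B8 (4) and line 1G10 (4). The 12 hFWE WT tumours came from lines 5B2, 6C9 and 6C10, with 4 tumours each. The lines are named by code, and the labels do not say whether each is 1 clone, how the knockout was made, or whether each tumour grew in its own mouse. The p-values therefore measure the spread between these tumours. Every line has 1 genotype, so line and genotype can be separated only through the 3 lines on each side.

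A class I molecule is assembled in the endoplasmic reticulum from a heavy chain, B2M and a peptide that proteasomes have cut and the TAP1-TAP2 transporter has brought in, with tapasin holding the empty molecule to the transporter. HLA-B and HLA-C present peptides to cytotoxic T cells and are read by receptors of NK cells, HLA-E presents leader peptides of other class I chains to NK cell receptors, and HLA-F is known as a ligand of NK cell receptors in a form without peptide. The genes are known to be induced by interferons, in part through interferon regulatory factors such as IRF1, and by NLRC5, which acts with RFX and NF-Y proteins on an upstream module that includes the X2 box.

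Promoter windows are shown because this shared regulation is what ties the genes together. RefSeq windows of 250 bases before to 50 bases after the annotated start (GRCh38.p14) were found for 8 of the 9 members, all but HLA-E, and TAP1 had a window at each of its 2 annotated starts. Each sequence is the reference allele on the gene's own strand, 5′ to 3′, and not the allele of SCC-13. Capitals mark matches, on either strand, to the interferon-stimulated response element (ISRE) core, which is GAAA, any 2 bases and GAAA again, the enhancer A sequence that NF-kB is known to bind, which is GGGGATT followed directly by CCCC, the X2 core TGACGC, and the CCAAT box CCAAT. The windows are HLA-B (chr6:31357130-31357429, minus strand), HLA-C (chr6:31272043-31272342, minus), B2M (chr15:44711267-44711566, plus), TAP1 at its upstream start (chr6:32853655-32853954, minus) and TAPBP (chr6:33314029-33314328, minus).
HLA-B: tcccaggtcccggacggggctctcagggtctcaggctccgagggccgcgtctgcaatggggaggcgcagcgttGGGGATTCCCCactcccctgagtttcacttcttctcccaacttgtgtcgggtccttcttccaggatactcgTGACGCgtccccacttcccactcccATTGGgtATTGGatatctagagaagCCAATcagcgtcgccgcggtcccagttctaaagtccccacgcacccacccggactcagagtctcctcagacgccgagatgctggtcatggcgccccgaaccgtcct
HLA-C: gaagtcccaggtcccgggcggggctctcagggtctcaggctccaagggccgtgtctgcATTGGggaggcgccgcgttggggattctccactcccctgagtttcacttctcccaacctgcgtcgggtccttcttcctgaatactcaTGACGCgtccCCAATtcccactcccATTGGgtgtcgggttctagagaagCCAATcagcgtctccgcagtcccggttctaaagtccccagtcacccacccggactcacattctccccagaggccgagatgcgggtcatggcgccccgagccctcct
B2M: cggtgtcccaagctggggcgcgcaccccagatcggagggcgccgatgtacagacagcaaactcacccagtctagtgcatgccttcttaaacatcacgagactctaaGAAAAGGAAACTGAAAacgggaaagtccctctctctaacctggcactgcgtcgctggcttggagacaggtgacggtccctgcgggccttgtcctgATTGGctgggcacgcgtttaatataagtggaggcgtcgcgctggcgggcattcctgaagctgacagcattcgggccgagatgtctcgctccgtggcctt
TAP1: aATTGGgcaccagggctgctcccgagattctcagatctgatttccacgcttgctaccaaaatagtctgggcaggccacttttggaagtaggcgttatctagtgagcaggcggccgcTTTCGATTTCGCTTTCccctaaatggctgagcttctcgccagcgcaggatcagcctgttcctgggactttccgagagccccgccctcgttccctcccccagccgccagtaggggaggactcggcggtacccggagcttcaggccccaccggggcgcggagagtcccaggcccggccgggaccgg
TAPBP: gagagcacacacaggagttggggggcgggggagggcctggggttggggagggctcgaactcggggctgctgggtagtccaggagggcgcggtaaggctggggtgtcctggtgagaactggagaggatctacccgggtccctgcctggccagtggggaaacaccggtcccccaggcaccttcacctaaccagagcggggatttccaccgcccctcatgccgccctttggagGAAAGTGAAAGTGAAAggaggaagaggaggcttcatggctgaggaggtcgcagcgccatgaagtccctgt
The ISRE core was present in 5 members with a window (HLA-F, B2M, TAP1, TAP2 and TAPBP) and in 3.57% of all 35116 RefSeq promoter windows. In B2M, TAP1 and TAPBP it occurred as 2 overlapping copies. The X2 core was found in HLA-B, HLA-C and TAP2, against 9.14% of all windows, and enhancer A only in HLA-B, against 0.031%. The gamma-activated sequence TTCNNNGAA (GAS) was found only in the window of TAP1's downstream start and in 7.66% of all windows. CCAAT boxes were found in 6 members and in 34.6% of all windows. A match is a description of these letters and not a bound site. Only exact matches were searched, so a window with no match to a motif may still hold a variant of it.

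**Figure D1:**
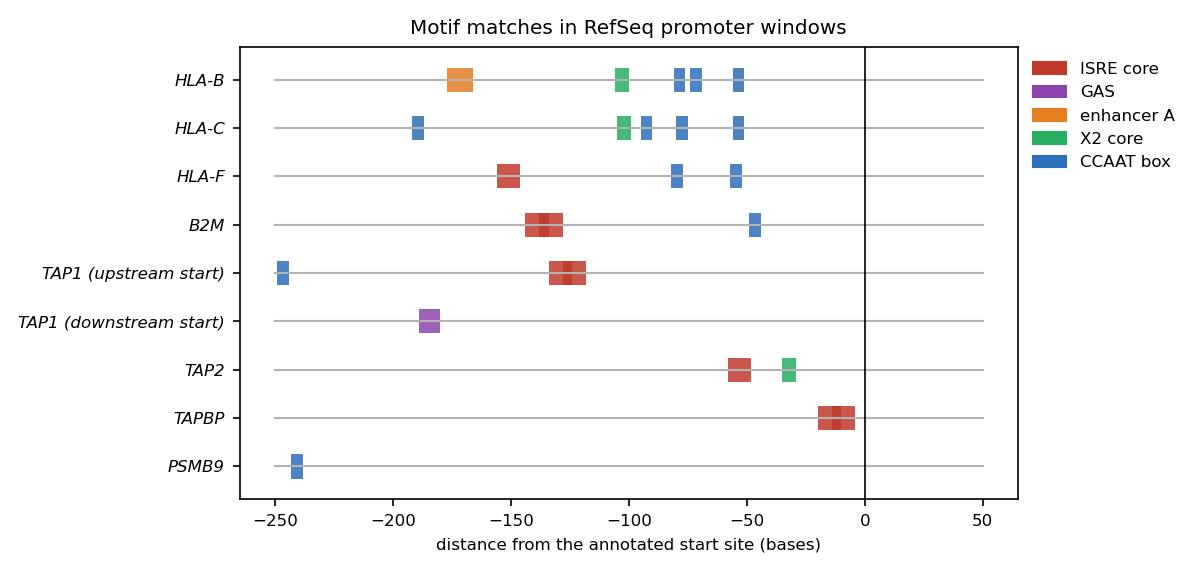
Position of motif matches in the 9 RefSeq promoter windows of 8 members; the x axis is the distance from the annotated start site in bases and each coloured block is 1 match on either strand. HLA-B and HLA-C carry the X2 core and CCAAT boxes at nearly the same distances, and overlapping ISRE cores lie upstream in B2M and TAP1 and next to the start in TAPBP.

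The table gives 1 normalized value per gene and tumour, a signal proportional to reads after the submitters' scaling between libraries. The size of 1 read in these units gave an estimated 13082214 to 22093213 assigned reads in 21 libraries, 7011069 in WT 6C9 specimen 5532 and 2037751 in WT 6C9 specimen 5533. Specimen 5533 also stood apart in its median correlation with the other libraries, 0.763, against 0.943 to 0.973 in the others, and in its mitochondrial share, 6.21%, against 1.39% to 3.50%. Results that rest on these 2 shallow libraries are given with and without them. CACFD1, the targeted gene, had values of 167, 277 and 369.5 (lowest, median and highest) in KO tumours, against 286, 369.6 and 432 in WT tumours. Its log2 difference (KO minus WT) was -0.45 with an adjusted p of 0.227 in limma, and 7 of 11 KO tumours lay below every WT tumour. By line it was -0.12 in 2F7, -0.49 in 2B8 and -0.67 in 1G10, each against the WT lines. All 7 keratinocyte markers were detected in every tumour, with KRT14 at 279754 to 429157 in KO and 202703 to 412428 in WT tumours. Of the leukocyte markers, PTPRC did not exceed 21.8 in KO and 10.2 in WT tumours, CD3E did not exceed 2.86 and 4.80, and NKG7 was not in the table. The myeloid markers CD68, LYZ, CSF1R and CD14 were detected in every tumour. The myeloid marker ITGAM was at 0 in 3 KO tumours and 1 WT tumour and did not exceed 8.02 in KO and 9.89 in WT tumours. CD68 lay at 313 to 530.0 in KO and 394 to 625 in WT tumours, and LYZ reached 96.4 in KO and 78.1 in WT tumours. CSF1R reached 63.7 in KO and 41.2 in WT tumours, and CD14 32.8 and 28.6. The treatment of mouse reads is not stated in the labels or processing notes.

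Class I transcripts were abundant in tumours of both genotypes, and no member differed between KO and WT tumours past adjustment. Per kilobase of the longest coding transcript, B2M was the highest member in KO tumours at 4452, followed by HLA-E at 4199, HLA-B at 2421 and HLA-C at 2309.8. HLA-F followed at 417, TAPBP at 384, TAP2 at 185, TAP1 at 181 and PSMB9 at 137. In WT tumours the same quantity was 4443 for B2M, 3956 for HLA-E, 2377 for HLA-B and 2076 for HLA-C, then 403 for HLA-F, 352 for TAPBP, 158 for TAP2, 159.8 for TAP1 and 129.9 for PSMB9. Divided by that length, TAP1 and TAP2, the partners of 1 transporter, were close in level, while their undivided means in KO tumours were 534 and 1052. Which of their transcripts were expressed was not examined. B2M and HLA-E were also close per length, and differed by less than the spread between tumours. Over all genes tested, 1 of 16063, 0.00623%, passed an adjusted p of 0.05 in limma, and 0% passed without the 2 shallow libraries. Of the 9 members, 0 passed that threshold in either fit and 0 had an unadjusted p under 0.05, against 5.9% of all genes higher and 6.63% lower in KO tumours at that level. The difference was positive for all 9 members and for 8705 of all 16063 genes tested, with medians of 0.10 and 0.03 on the log2 scale. It was negative for TAPBP without the 2 shallow libraries, at -0.01, and leaving out single lines gave negative values for HLA-B, HLA-F or B2M.

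**Figure D2:**
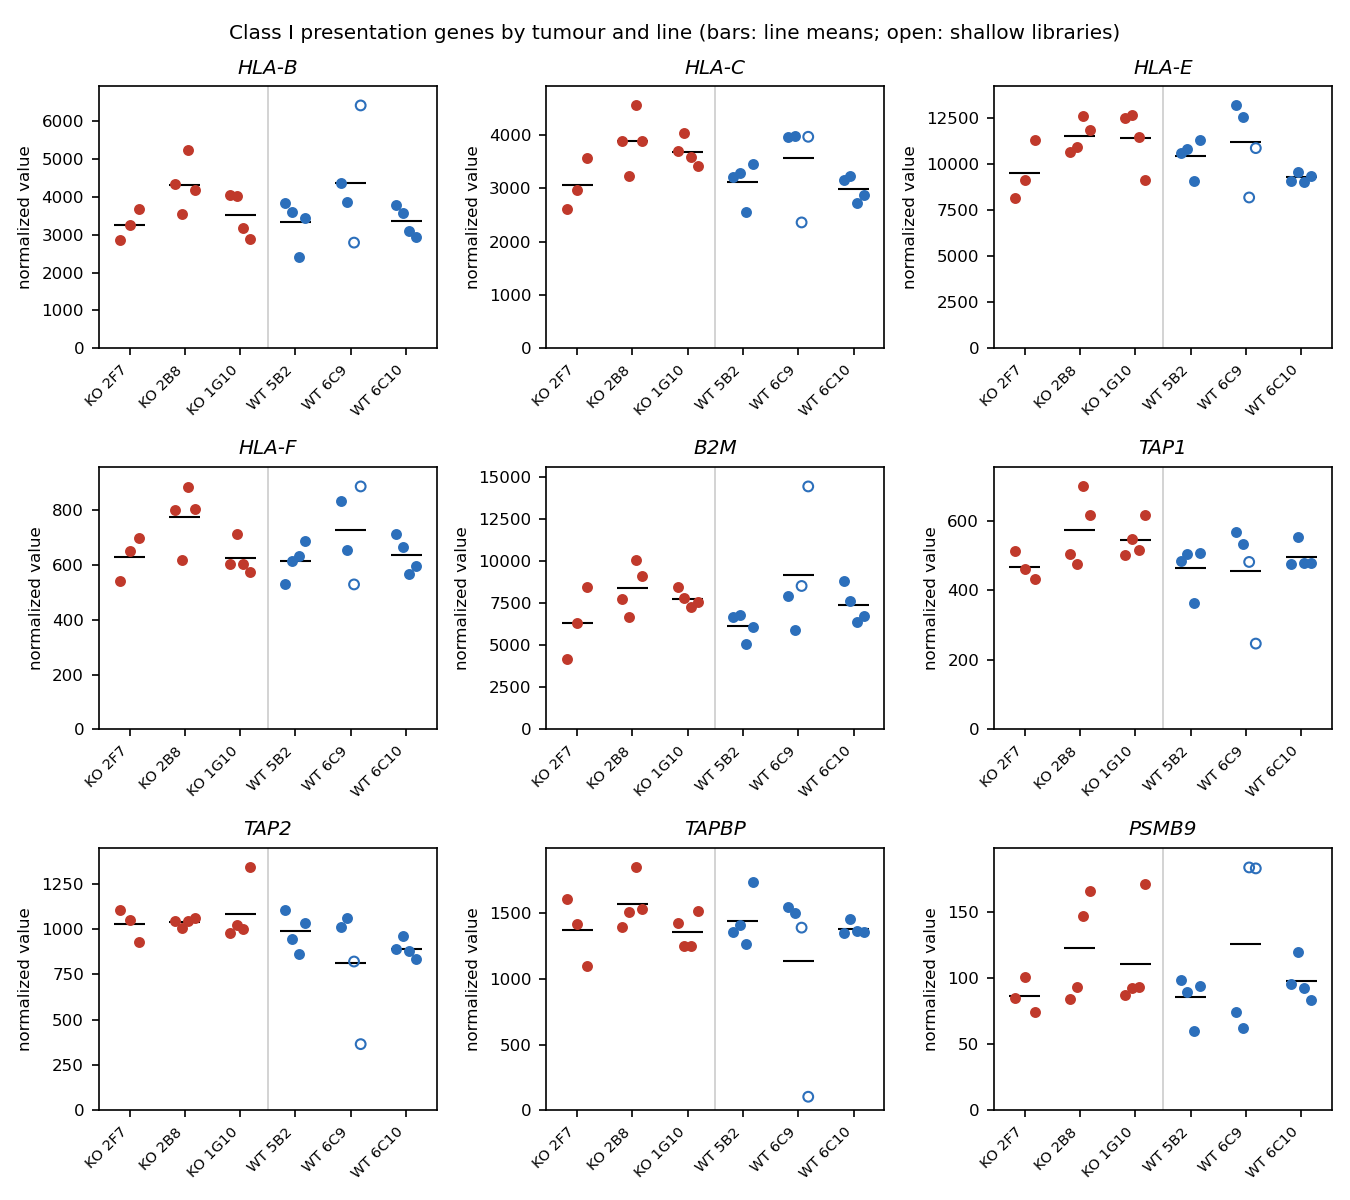
Normalized value (y axis, from 0) of each of the 9 members in each tumour, by line, with KO lines left of the grey divider and WT lines right of it; bars are line means and open circles are the shallow WT libraries 5532 and 5533. KO and WT tumours overlap for every member, and specimen 5533 is the highest tumour for B2M, HLA-B and HLA-F and the lowest for TAP1, TAP2 and TAPBP.

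HLA-B (ENSG00000234745, chr6:31353872-31357189, minus strand, hg38 as are all gene coordinates here) had normalized values of 2868, 3671 and 5224 (lowest, median and highest) in KO tumours, against 2410.0, 3590.2 and 6409 in WT tumours. The groups overlapped over nearly their whole range, and the highest WT value was the shallow specimen 5533. The log2 difference was 0.05 with SE 0.13 (limma adjusted p = 0.866).

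HLA-C (ENSG00000204525, chr6:31268749-31272131, minus strand) had values of 2620.3, 3588 and 4552 in KO tumours, against 2360.4, 3215 and 3971 in WT tumours. HLA-C lay above the WT median in 9 of 11 KO tumours, and 1 tumour each of 2B8 and 1G10 exceeded the highest WT tumour. The difference was 0.16 with SE 0.10 (limma adjusted p = 0.494).

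HLA-E (ENSG00000204592, chr6:30489509-30494195, plus strand) had values of 8158.5, 11263 and 12623 in KO tumours, against 8174, 10071 and 13158.5 in WT tumours. Its lowest values were nearly equal in the 2 genotypes and its highest value was a WT tumour, and the difference was 0.09 with SE 0.10 (limma adjusted p = 0.662). HLA-F (ENSG00000204642, chr6:29722775-29738529, plus strand) had values of 541, 651 and 884 in KO tumours, against 529, 644 and 887 in WT tumours. These ranges nearly coincided, and the difference was 0.05 with SE 0.10 (limma adjusted p = 0.812).

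B2M (ENSG00000166710, chr15:44711487-44718852, plus strand) had values of 4178, 7722 and 10052 in KO tumours, against 5080.5, 6744 and 14415 in WT tumours. Line 2F7 held the lowest KO tumour and specimen 5533 was far above every other tumour. Without the 2 shallow libraries the highest WT value was 8817. The difference was 0.02 with SE 0.15 (limma adjusted p = 0.946), and 0.14 without the shallow libraries (adjusted p = 0.758).

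TAP1 (ENSG00000168394, chr6:32845209-32853817, minus strand) had values of 433, 512 and 698 in KO tumours, against 247, 483 and 567 in WT tumours. The highest KO values came from lines 2B8 and 1G10, and the difference was 0.19 with SE 0.12 (limma adjusted p = 0.476). The WT minimum was specimen 5533, at an estimated 27 reads, and the lowest WT tumour outside the shallow libraries had 365. The difference was 0.11 without 5533 and 0.10 without both shallow libraries (limma adjusted p = 0.741 for the last). TAP2 (ENSG00000204267, chr6:32821833-32838740, minus strand) had values of 928, 1044 and 1339.7 in KO tumours, against 365, 917 and 1105 in WT tumours. The WT median was below each of the 11 KO values, and 1 KO tumour exceeded the highest WT tumour. TAP2 had the smallest p of the members, 0.050 unadjusted and 0.399 adjusted in limma, with a difference of 0.27 and SE 0.13. Without the 2 shallow libraries, the lower of which set the WT minimum, the difference was 0.13 (adjusted p = 0.522).

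TAP2 was also the only member whose 3 KO line means all lay above its 3 WT line means. On the log2 scale, KO line 2F7 averaged 10.00, 2B8 10.02 and 1G10 10.07, against 9.94 for WT line 5B2, 9.56 for 6C9 and 9.80 for 6C10. That made 1 of 9 members with line means that did not overlap, against 18.6% of all genes in either direction, and the exact permutation test over lines gave p = 0.1, the smallest it allows. Without the 2 shallow libraries the line means overlapped, since KO line 2F7 then averaged a normalized value of 1027, below WT line 6C9 at 1037.

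TAPBP (ENSG00000231925, chr6:33299694-33314255, minus strand) had values of 1102, 1425.5 and 1850.2 in KO tumours, against 104, 1379.8 and 1741 in WT tumours. It had the largest difference among the members, 0.32 with SE 0.32 (limma adjusted p = 0.630), and that difference rested on 1 library. Specimen 5533 was at 104 while the other WT tumours ran from 1265 to 1741, and without it the difference was 0.00. PSMB9 (ENSG00000240065, chr6:32844136-32859852, plus strand) had values of 74.5, 92.9 and 171 in KO tumours, against 59.9, 93.4 and 183 in WT tumours. The WT tumours that stood above the rest were the shallow specimens 5532 and 5533, both at 183, and no other WT tumour exceeded 119. The difference was 0.10 with SE 0.19 (limma adjusted p = 0.797), 0.29 without both shallow libraries (limma adjusted p = 0.567) and 0.19 or 0.18 without 5532 or 5533 alone. PSMB9 varied most from tumour to tumour, with a coefficient of variation of 32.2% in KO and 39.6% in WT tumours, against 10.1% and 21.3% for TAP2. Without the shallow libraries the WT coefficient was 20.6% for PSMB9 and 9.58% for TAP2.

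**Figure D3:**
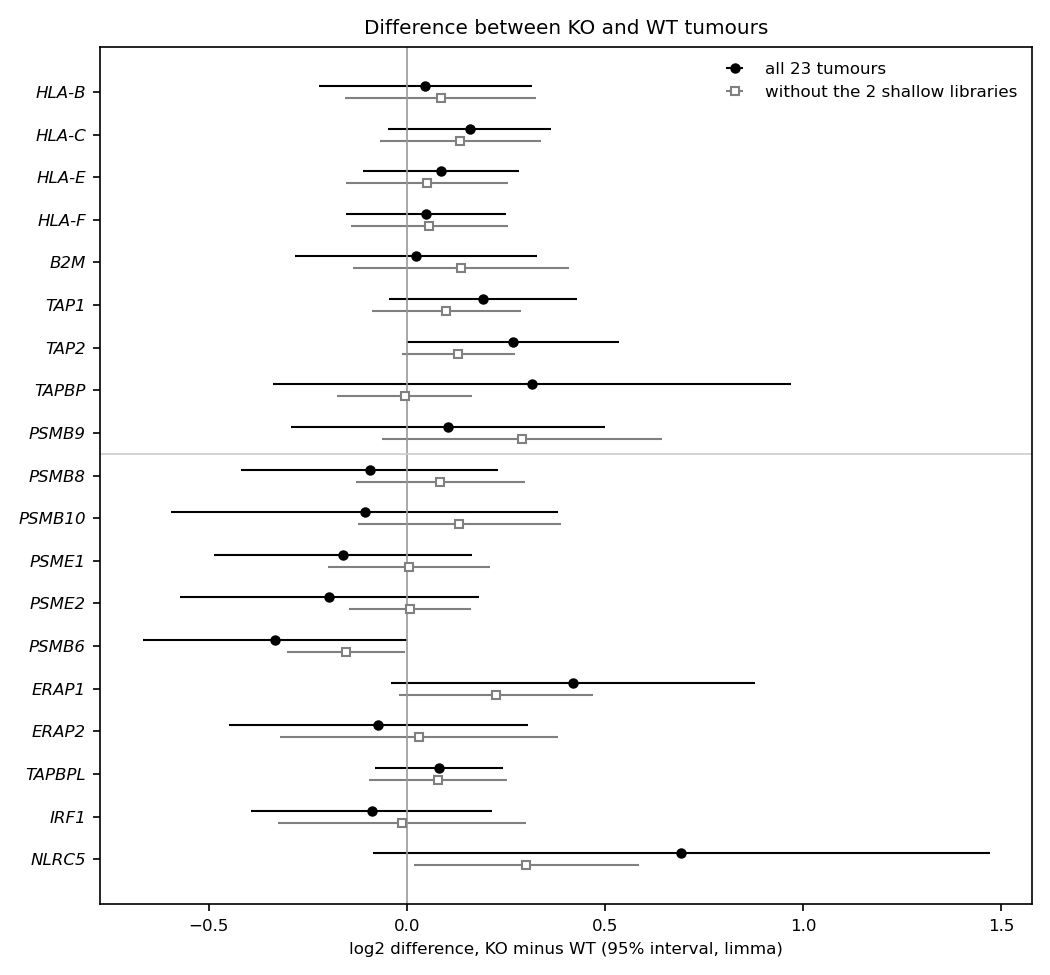
Log2 difference, KO minus WT, with its 95% interval from limma for the 9 members (above the grey line) and 10 related genes, over all 23 tumours (black) and without the 2 shallow libraries (grey squares). Intervals of all members span 0 in both fits, and the TAPBP interval, the widest among members, narrows around 0 without the shallow libraries.

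Among KO lines, 2B8 had the highest mean of 8 members and 2F7 the lowest mean of 7, although no member passed adjustment among lines. In line 2B8, HLA-C had 3889, 3237, 4552 and 3894 in its 4 tumours and HLA-B had 4332, 3552.5, 5224 and 4175. In line 1G10, HLA-C had 3707, 4041, 3588 and 3416 and HLA-B had 4039, 4017, 3176 and 2873. In line 2F7, HLA-C had 2620.3, 2968 and 3571 and HLA-B had 2868, 3264 and 3671. The mean of 2F7 was the lowest of the 3 KO lines in both heavy chains, at 3268 for HLA-B and 3053 for HLA-C, and the mean of 2B8 the highest. Single tumours overlapped, and the 1G10 tumours at 2873 and 3176 for HLA-B lay below 2 of the 3 tumours of 2F7. Relative to the WT lines, 2B8 had positive differences for all 9 members, from 0.17 for HLA-E to 0.45 for TAPBP, and the TAPBP value again includes specimen 5533 among the WT tumours. HLA-C differed by 0.28 with SE 0.13 in 2B8 (limma adjusted p = 0.596). It was the only member with an unadjusted p under 0.05 there, 1 of 9, against 8.19% of all genes in that contrast. In 2F7 the difference was negative for 6 of 9 members, the lowest being B2M at -0.27 with SE 0.21 (adjusted p = 0.950). In 1G10 it was negative for HLA-B at -0.03 and HLA-F at -0.07 and positive for the other 7. No gene of the table passed adjustment in any of the 3 line contrasts (0%), which share the WT tumours. In limma's F test among KO lines 0 of 16063 genes (0%) passed, and the smallest unadjusted p of a member was 0.109, for HLA-F. Among WT lines 1 gene that is no member passed (0.00623%), and the smallest member p was 0.107, for B2M. At an unadjusted p under 0.05 the F tests held 0 of 9 members in each genotype, against 2.22% of all genes among KO lines and 10.3% among WT lines.

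Specimen 5533 was high for most members with short transcripts and low for TAP1, TAP2 and TAPBP, whose transcripts are the longest. Relative to the median of the other WT tumours, B2M was 2.15-fold, PSMB9 1.97-fold, HLA-B 1.79-fold and HLA-F 1.40-fold. HLA-C was 1.24-fold and HLA-E 1.13-fold, both within the range of the other WT tumours, although HLA-C at 1554 bases is nearly as short as HLA-B at 1547. TAPBP, at 3759 bases, was lower than the longer TAP2, at 5684 bases. TAP1 was at 0.509-fold, TAP2 at 0.386-fold and TAPBP at 0.0747-fold, the last 2 resting on an estimated 40 and 11.4 reads. Over 12751 genes with a coding transcript length, the log2 ratio of this library to the other WT tumours had a Spearman rho of -0.47 with length. Its median was 0.64 among genes with the shortest transcripts and -0.91 among those with the longest, in 3 groups of equal size. In the other 22 libraries the same rho lay between -0.27 and 0.35. How far length accounts for the values of single members was not tested.

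The heavy chains went together from tumour to tumour. All 6 pairs of heavy chains were positively correlated over the 23 tumours, with Pearson r from 0.58 to 0.88 on log2 values, and from 0.56 to 0.87 without the 2 shallow libraries. All 6 passed an adjusted p of 0.05 in both, by permutation with adjustment over 36 pairs. The permutation shuffled tumours without regard to line. The share of all gene pairs that would pass was not computed, so counts of passing pairs do not set the members apart from other genes. The closest pair was HLA-C and HLA-E, with r = 0.88 and Spearman rho = 0.90 (permutation p = 1e-05 for each, the smallest that 100000 resamples can give, adjusted 0.00012 and 0.00018). Without the 2 tumours farthest from the HLA-C median r was 0.86, and within genotypes it was 0.86 in KO and 0.90 in WT tumours. These 2 genes share a library, its scaling and some sequence. B2M, encoded on another chromosome, had r from 0.36 to 0.75 with the heavy chains, and from 0.54 to 0.72 without the shallow libraries.

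Over all 23 tumours the loading genes TAP1, TAP2 and TAPBP formed a second group, with r from 0.83 to 0.91 in their 3 pairs. All 3 passed an adjusted permutation p of 0.05. Without the shallow libraries the group was less distinct, with r from 0.44 to 0.64 and 2 of 3 pairs passing. TAP1 was then no closer to TAP2 than to HLA-B, at r = 0.60. TAP1 and TAP2 had r = 0.84 and rho = 0.61 (permutation p = 0.00017 and 0.00245, adjusted 0.000874 and 0.0121 over the 36 pairs), and r = 0.58 without the shallow libraries (adjusted permutation p = 0.0224). Without the 2 tumours farthest from the TAP1 median r was 0.61. The relation of the 2 groups depended on the shallow libraries. Between a heavy chain or B2M and TAP1, TAP2 or TAPBP, r was negative in 11 of 15 pairs with all tumours and in 2 of 15 without the shallow ones. For HLA-C and TAP1, r was 0.25 and rho 0.49 over all 23 tumours (permutation p = 0.255 and 0.0183, adjusted 0.382 and 0.0550), and r was 0.15 without the 2 tumours farthest from the HLA-C median. Without the 2 shallow libraries r was 0.69 and rho 0.64 (permutation p = 0.00041 and 0.00216, adjusted 0.0018 and 0.0130). For TAP1 and PSMB9, r was 0.04 and rho 0.13 with all tumours (permutation p = 0.869 and 0.548, adjusted 0.920 and 0.704), and r was 0.52 without the 2 tumours farthest from the TAP1 median. Without the shallow libraries r was 0.71 and rho 0.36 (permutation p = 0.00045 and 0.107, adjusted 0.0018 and 0.215). In bulk tumours, fewer cells that express a gene and less RNA per cell cannot be told apart.

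**Figure D4:**
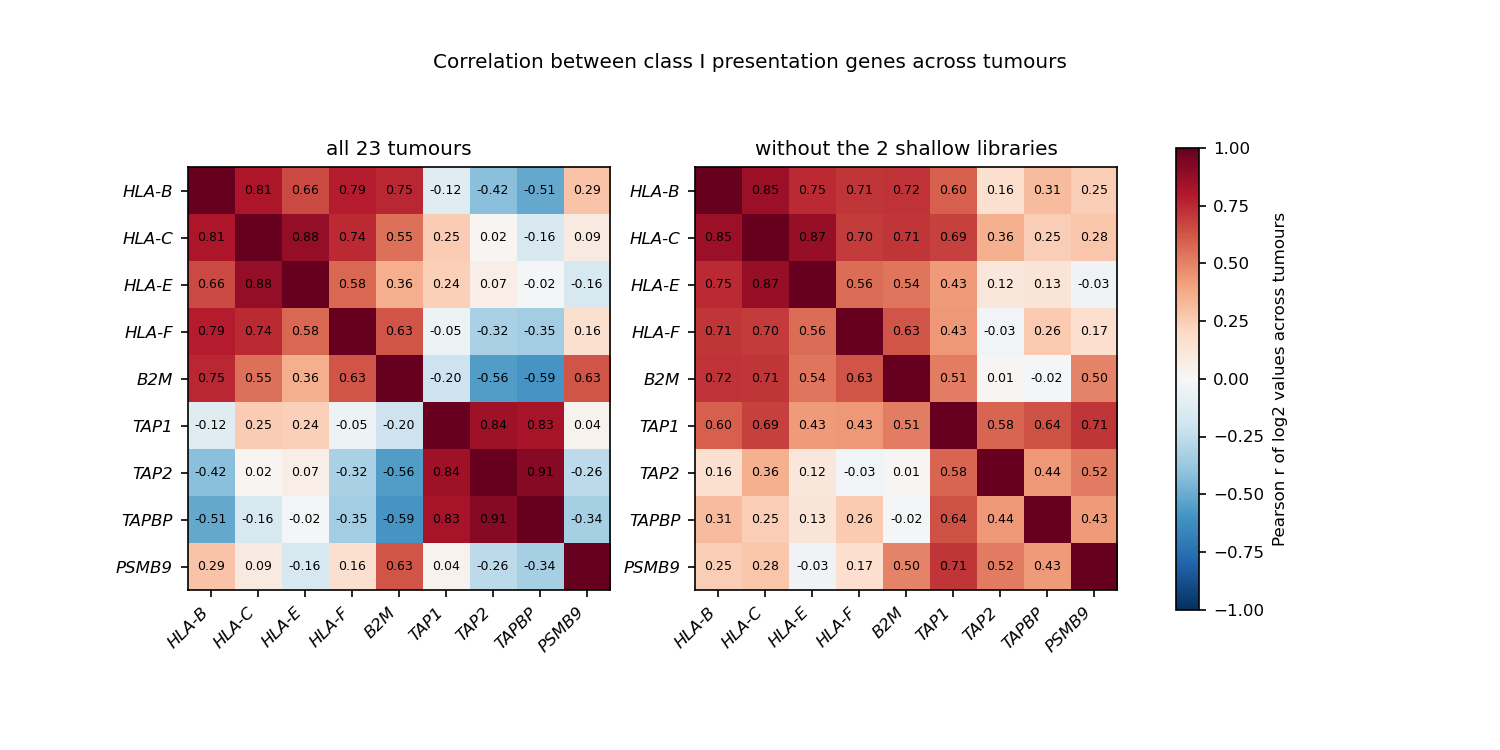
Pearson r of log2 values between the 9 members across all 23 tumours (left) and without the 2 shallow libraries (right), coloured from blue (-1) to red (1) with r printed in each cell. The heavy chains and B2M form a positive block in both panels, and their mostly negative r with TAP1, TAP2 and TAPBP in the left panel turn positive or lie near 0 in the right.

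The regulators IRF1 and NLRC5 went with some of the class I genes, to a different extent depending on the shallow libraries. With IRF1, an interferon-induced activator of class I promoters, the mean log2 level of the 9 members had r = 0.30 and rho = 0.25 over the 23 tumours, and r = 0.58 without the shallow libraries. Within genotypes r with IRF1 was 0.63 in KO and -0.01 in WT tumours. The within-genotype r of the mean was computed only with the shallow libraries included. Specimen 5533 had the highest IRF1 of all tumours, 8.48 on the log2 scale, with a member mean of 10.26. In WT tumours r with IRF1 was -0.45 for TAP1, -0.74 for TAP2 and -0.71 for TAPBP. Without the shallow libraries these were 0.72, 0.02 and 0.48, and the other members had positive r both ways. With NLRC5 the mean of the members had r = 0.49 and rho = 0.54 over all tumours, and r = 0.45 without the shallow libraries. Within genotypes r with NLRC5 was 0.39 in KO and 0.54 in WT tumours. The WT value includes specimen 5533, where NLRC5 was at 3.34 on the log2 scale, against 7.31 to 8.40 in the other WT tumours. These values are descriptions over tumours that share the scaling of each library, with no test. For single members, by permutation of r with adjustment over the 27 pairs of members and regulators examined, 3 of 9 passed an adjusted p of 0.05 with IRF1 without the shallow libraries, against 1 of 9 with all tumours. With NLRC5, 2 of 9 passed without them, HLA-F and TAPBP, and 3 of 9 with all tumours, TAP1, TAP2 and TAPBP. The share of all genes that would pass with IRF1 or NLRC5 was not computed. Over all tumours r with NLRC5 was negative for 5 of 9 members, the lowest being B2M at -0.56. None was negative without the shallow libraries, where B2M had r = 0.08. With IRF1, r was negative for 3 of 9 over all tumours and 1 of 9 without the shallow libraries. TAPBP was the closest to NLRC5, with r = 0.96 and rho = 0.67 over all tumours (permutation p = 1e-04 and 0.00064, adjusted 0.0009 and 0.00576). Without the 2 tumours farthest from the TAPBP median r was 0.50. Without the shallow libraries r was 0.58 and rho 0.63 (permutation p = 0.00495 and 0.00285, adjusted 0.0148 and 0.0128).

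**Figure D5:**
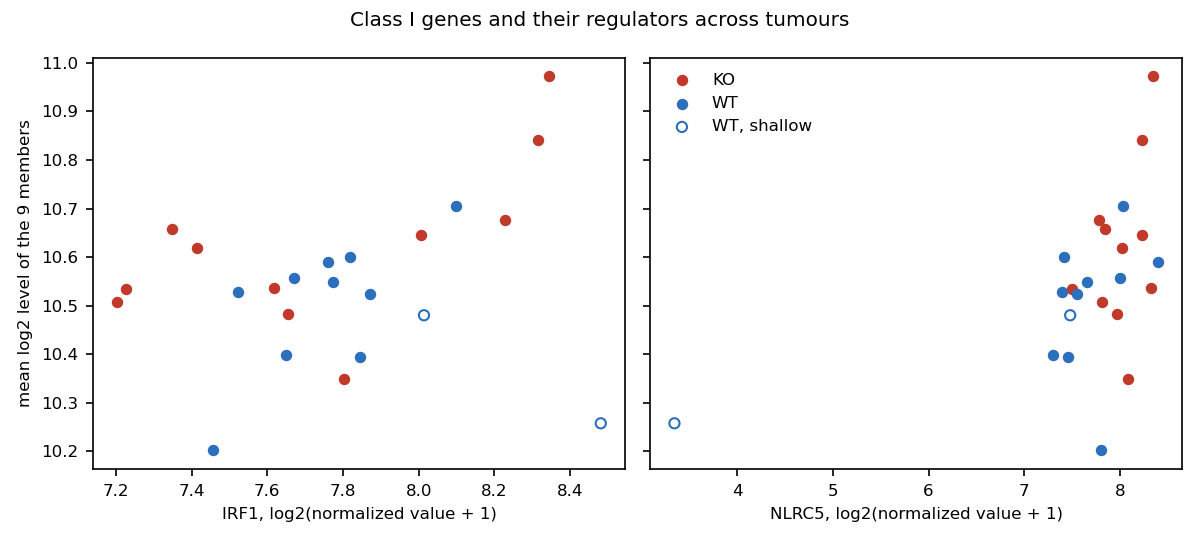
Mean log2(normalized value + 1) of the 9 members (y axis) against IRF1 and NLRC5 on the same scale (x axes), 1 point per tumour, KO in red and WT in blue, with the shallow WT libraries as open circles. The points scatter widely for IRF1 (r = 0.30 over 23 tumours), and for NLRC5 include 1 open point far to the left, specimen 5533.

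NLRC5, known as the class I transactivator, had values of 179.5, 258 and 324 in KO tumours, against 9.14, 182 and 336 in WT tumours. Its lowest WT value, in specimen 5533, stood for an estimated 1 read. The difference was 0.69 (limma adjusted p = 0.448), and 0.30 without the shallow libraries (adjusted p = 0.452). With libraries weighted by quality, NLRC5 was called higher in KO tumours, at 0.47 (limma adjusted p = 0.0337). IRF1 had values of 146, 200.4 and 324 in KO tumours, against 174.6, 221 and 356 in WT tumours, with a difference of -0.09 (limma adjusted p = 0.772). Of 24 regulators in the list, 0 passed adjustment, and 3 were higher and 0 lower in KO tumours at an unadjusted p under 0.05.

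Interferon-stimulated genes outside the class I route had positive differences for the most part. Of 31 listed genes that are no members, 28 were in the table and 26 were tested. At an unadjusted p under 0.05, 17 of the 26 were higher and 1 lower in KO tumours, against 5.9% and 6.63% of all genes, and 0 passed adjustment in limma. Their median difference was 0.57, against 0.10 for the 9 members and 0.03 for all genes. MX1, an antiviral GTPase, had values of 174, 295 and 821 in KO tumours, against 67.5, 187 and 491 in WT tumours. OASL, a relative of the oligoadenylate synthetases, was the 1 listed gene lower at that unadjusted p, among 3 with a negative difference. It had values of 74.9, 195 and 333 in KO tumours, against 155, 298 and 366 in WT tumours. Whether the difference in median between the listed genes and the members exceeds chance was not tested. With libraries weighted by quality, 14 of the 26 were called higher and 1 lower in limma. Of all 16063 genes, 254 were called higher and 484 lower in that fit, 4.59% in either direction. Of the 9 members 0 were called there, and their smallest adjusted limma p was 0.134. At an unadjusted p under 0.05, 2 of 9 members were higher and 0 lower, against 1630 and 1808 of all 16063 genes.

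Genes that complete the route gave no called difference. Of 9 loading and trimming genes, 0 passed adjustment and 1 was higher at an unadjusted p. ERAP1, which trims peptides in the endoplasmic reticulum, averaged 421 ± 71.2 in KO and 336 ± 101 in WT tumours, with a difference of 0.42 (limma adjusted p = 0.438). ERAP2, its paralogue, averaged 39.9 ± 10.3 and 42.6 ± 16.5 in KO and WT tumours. TAPBPL, a tapasin relative that edits peptides, averaged 159 ± 16.1 and 151 ± 14.8 in KO and WT tumours. All of these SD are over 11 KO and 12 WT tumours.

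Of 7 proteasome genes, 0 passed adjustment, and all 7 had negative differences, against 2 of 7 without the shallow libraries. Of all genes tested, 7358 of 16063 were negative, and 7968 of 15924 without the shallow libraries. PSMB8 and PSMB10, the remaining immunoproteasome subunits, differed by -0.09 and -0.11 (limma adjusted p = 0.775 and 0.831), and by 0.08 and 0.13 without the shallow libraries. PSME1 and PSME2, which form the PA28 activator, differed by -0.16 and -0.20 (adjusted p = 0.622 and 0.608), and by 0.01 each without them. PSMB9 replaces the constitutive subunit PSMB6 in the immunoproteasome, and their log2 ratio within a library does not depend on scaling. The ratio averaged -3.39 ± 0.45 in KO and -3.82 ± 0.44 in WT tumours (SD, n = 11 and 12), and 9 of 11 KO tumours lay above the WT median. PSMB6 itself had values of 959, 1069 and 1385 in KO tumours, against 1121, 1247 and 4275 in WT tumours, where the highest value was specimen 5533. Its difference was -0.33 (limma adjusted p = 0.399), -0.15 without the shallow libraries (adjusted p = 0.467) and -0.23 with libraries weighted by quality, where it was called lower (adjusted p = 0.0474). The ratio difference of 0.44 thus combined 0.10 for PSMB9 with -0.33 for PSMB6. It had a two-sided permutation p of 0.0297, and 0.0890 after adjustment over the 3 ratios examined. KO line 2F7 averaged a ratio of -3.69, 2B8 -3.13 and 1G10 -3.42, against -3.88 for WT line 5B2, -3.93 for 6C9 and -3.67 for 6C10. The exact permutation of line means gave p = 0.2. Leaving out single tumours gave differences of 0.37 to 0.51. Among these, leaving out KO 2F7 5540 or WT 6C9 5532 brought the adjusted permutation p to 0.0291 and 0.0301, with differences of 0.51 and 0.51. These 2 were singled out after the values were seen and add no support beyond the full set. The TAP1 to TAP2 ratio differed by -0.07 and the HLA-B to B2M ratio by 0.02 (permutation p = 0.332 and 0.819).

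Class II genes were low next to the class I heavy chains, and ligands that lymphocytes read beside class I gave no called difference. Of 11 class II genes, 9 were in the table, 3 reached the mean of 10 needed for a test and 0 were called. The 3 tested were HLA-DRB1, which averaged 51.5 in KO and 43.9 in WT tumours, HLA-DQB1 at 36.1 and 28.6, and CIITA at 26.0 and 17.1. CD74, the invariant chain, averaged 6.16 ± 6.27 in KO and 4.58 ± 4.75 in WT tumours, and HLA-DRA 2.64 ± 2.36 and 2.01 ± 1.69 (SD, n = 11 and 12). Of 9 ligands of NK and T cell receptors, 8 were tested and 0 called, and NECTIN2, a ligand of DNAM-1 and TIGIT, was the only one with an unadjusted p under 0.05, with a difference of -0.25 (limma adjusted p = 0.263). CD274, which encodes PD-L1, was below the mean of 10.

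The genes most like the members in pattern were ranked by Spearman rho with their mean log2 level over the 23 tumours, among 14730 named genes outside the group. The first was HLA-H, a class I pseudogene that shares sequence with the heavy chains, at 0.87. Among the 10 nearest were also ITM2C (0.86), TP73 (0.86), IFIT1 (0.84), LINC01605 (0.84), MAGED2 (0.83), FJX1 (0.83), HMGXB3 (0.83) and CNNM4 (0.82). Without the 2 shallow libraries 4 of these 10 were again among the first 10, and IFIT1, an interferon-induced RNA-binding protein, came first at 0.92.

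Sequence shared with other genes limits single values. Of all stretches of 50 bases in GENCODE release 29 transcripts, 2.12% in HLA-B, 6.17% in HLA-C, 5.13% in HLA-E and 1.25% in HLA-F occurred in another gene, and none in B2M. In TAP2 32.7% were shared with an overlapping readthrough gene on the same strand, and in PSMB9 9.95% with PSMB8-AS1. The annotated span of TAP1 lies within that of PSMB9 on the opposite strand over 8609 bases, and HLA-F overlaps HLA-F-AS1 on the opposite strand. The library kit keeps strand, but no label or note says whether reads were counted by strand, so these values are uncertain to that extent.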

How the data were processed

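The deposited table holds 1 normalized signal per gene and tumour, which the authors made with STAR and DESeq2 on hg38, per the submitters' processing notes, with no versions or roles stated. It holds no counts. Of the values up to 20 reads, 70.6% to 83.9% were whole multiples of the smallest step within 0.02 reads, so whole reads were not recovered. Libraries were made from 500 ng of RNA, per the labels. The 16063 genes whose mean over 23 tumours reached 10 were compared as log2(value + 1) in limma 3.58.1 (R 4.3.3), a scale that understates changes of low genes. Line was a random block (consensus correlation 0.0077), with Benjamini-Hochberg adjustment over all genes at 0.05. Each KO line was set against the average of the 3 WT lines, and lines within a genotype were compared by F tests. Ratios and correlations were permuted 100000 times (NumPy 2.4.6, SciPy 1.17.1, Python 3.11.15). The fit was tested on simulated data. Any 2 libraries differed by more than sampling noise. Named genes were all members, listed related genes past the threshold, 11 fixed related genes and the 10 nearest in pattern, some of which are not reported here; PSMB6, MX1, OASL, NECTIN2, CD74, HLA-DRA, CD274 and the markers were named after their values were seen. Members and lists were chosen with earlier results of these data known. Alternatives were pseudocounts of 0.1 and 10, no filter, no line block, rescaling, quality weights, and leaving out tumours, lines or both shallow libraries.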

Additional observations from a re-analysis of the deposited data

Results flagged for a closer look

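In each line with 4 tumours, every member was checked for a tumour whose gap to its nearest neighbour exceeded Dixon's 95% critical share of the line's range, 45 checks in all, of which chance flags about 1 in 20. There were 7 such values, in 5 tumours. In KO line 1G10, specimen 5549 was high for TAP2 at 1339.7 (the others 976 to 1024) and for PSMB9 at 171 (the others 87.3 to 92.9). In WT line 6C9, specimen 5532 was low for HLA-C at 2360.4, with the nearest tumour at 3954, and specimen 5533 was low for TAPBP at 104, with the nearest at 1392. In WT line 6C10, specimen 5535 was high for TAP1 at 553 and for TAPBP at 1460.1, with the nearest tumours at 479 and 1368. In WT line 5B2, specimen 5528 was low for TAP1 at 365, with the nearest at 485. Specimens 5532 and 5533 are the shallow libraries; the part of depth in their values was not tested.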

How the results depend on the processing

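No member was called in any alternative, and the smallest adjusted limma p was 0.134. The KO against WT comparison called 1 gene as reported, 0 after rescaling, without both shallow libraries or without line 2B8, 1G10, 5B2 or 6C10, 738 with quality weights, and 0 to 2 when single tumours were left out. Leave-one-out counts were 0 to 26 for 1G10, 0 to 17 for 2B8 and 0 to 2 among WT lines. The difference became negative for HLA-B without 2B8 (-0.077), 5B2 (-0.014) or 6C10 (-0.00041), for HLA-F without 2B8 (-0.061), for B2M without 2B8 (-0.068), 1G10 (-0.015) or 5B2 (-0.10) or over line means (-0.0014), and for TAPBP without the shallow libraries (-0.0056). Leaving out single tumours gave -0.0044 to 0.12 for HLA-B and -0.025 to 0.11 for B2M. In 2F7 the sign turned for HLA-F after rescaling (0.0034) and, without the shallow libraries, for TAP1 (-0.10), TAPBP (-0.089) and PSMB9 (0.067). Leave-one-out ranges there were -0.19 to 0.033 for HLA-C, -0.13 to 0.050 for HLA-F, -0.51 to 0.0014 for B2M, -0.079 to 0.066 for TAP1 and -0.075 to 0.40 for TAPBP. In 1G10, TAPBP was -0.093 without the shallow libraries, and the ranges were -0.10 to 0.060 for HLA-B, -0.079 to 0.35 for TAPBP and -0.091 to 0.23 for PSMB9. The HLA-B to B2M ratio turned to -0.047 without the shallow libraries, -0.017 without 2F7, -0.0098 without 2B8 and -0.028 without 6C10, with a leave-one-out range of -0.028 to 0.062. The PSMB9 to PSMB6 difference was 0.55 without 2F7 (adjusted permutation p = 0.0418), with a leave-one-out range of 0.37 to 0.51. The correlation of the member mean with NLRC5 was 0.76 after rescaling. Alternatives for ratios and correlations were chosen after seeing the data, and the causes of these changes were not tested. Rescaling moved the median difference of all genes to 0.08, against 0.03. No paired analysis was possible because KO and WT tumours share no specimen number. Depth limits PSMB9, TAP1, TAP2 and TAPBP most in specimen 5533, at an estimated 11.4 to 40 reads.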
